A study of Arabidopsis thaliana with 18 samples.

Results

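The comparison described here sets seedlings given any of 4 chemicals against seedlings given the solvent DMSO, to ask for a response that the chemicals share. Its members are the 12 libraries labelled DPI, PI, AEG or TYR, chosen by treatment label alone from the 18 libraries of the series, and the control side is the 3 DMSO libraries. All were whole seedlings of Arabidopsis thaliana Col-0, 14 days old, grown on half-strength MS medium in 12 h light and 12 h dark. The chemical groups were collected at ZT 2 (2 h after lights on) on medium with DPI at 10 µM, PI (pentamidine isethionate) at 25 µM, AEG (AEG3482) at 12.5 µM or TYR (Tyrphostin AG879) at 2 µM, with 3 libraries each. The DMSO group was collected at ZT 2 on medium with DMSO at 0.1%, and untreated seedlings, also 3 libraries, were collected at ZT 0. The full names in brackets are the only chemicals of the labels that fit those letters, and DPI is not spelled out there. The labels do not say whether the chemical media also held DMSO, or whether replicates were separate cultures, so p-values measure the spread between these libraries only.

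Sugar made in the first hours of light acts as a signal in plant cells. Low sugar activates the kinase SnRK1 and the bZIP transcription factors it phosphorylates, which raise starvation genes for amino acid breakdown and carbon recovery, while sugar represses these genes and feeds back on the circadian clock. Many small molecules also call up general stress programmes in seedlings, among them detoxification enzymes, heat shock proteins and the alternative oxidase of mitochondria. A response shared by the 4 chemicals could appear in the mRNA of any of these as values on one side of DMSO. It could be missed where it is small beside the spread between libraries.

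Total counts per library lay between 3156987 and 3249696 over the listed genes, and between 8385 and 8610 genes reached 10 counts. The number of genes with at least 10 counts averaged 8502 ± 71.1 with the chemicals and 8562 ± 31.3 with DMSO (SD, n = 12 and n = 3; exact permutation test, two-sided, p = 0.196, adjusted p = 0.588 over 3 library measures). The table listed 11437 protein-coding genes, which is 41.5% of those in RefSeq, and 9006 of them passed the count filter and were tested. Because whole seedlings were used, fewer cells of a type and less RNA per cell cannot be told apart. Of 14 root markers 6 were listed, with a summed level of 4.25 to 44.6 CPM (counts scaled to the library's total over the listed genes) in the chemical libraries, 11.6 to 13.1 CPM in the DMSO libraries and 7.41 to 66 CPM in the untreated ones. Of the 6, RHD6, EXPA7, EXPA18 and CASP4 were at or near 0, and the part of root content in any result was not tested.

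No gene passed the test for a difference between the pooled chemicals and DMSO. The quasi-likelihood test of edgeR, with Benjamini-Hochberg adjustment over 9006 genes and a threshold of 0.05, called 0 of them (0%), and the smallest adjusted p was 1. DESeq2 also called 0 genes. Before adjustment, 226 genes had p under 0.05 by edgeR (2.51% of those tested), 71 higher (0.788%) and 155 lower (1.72%), and 179 genes by DESeq2, where 5% of the genes tested would be 450.3. The median log2 fold change over all genes, chemicals over DMSO, was -0.0022, the median absolute log2 fold change was 0.093, and 95% of genes lay within 0.46 of 0. The median SD of log2 CPM was 0.26 over the 12 chemical libraries together, beside 0.19 within PI, 0.2 within AEG, 0.22 within TYR, 0.25 within DPI and 0.24 within DMSO.

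**Figure D1:**
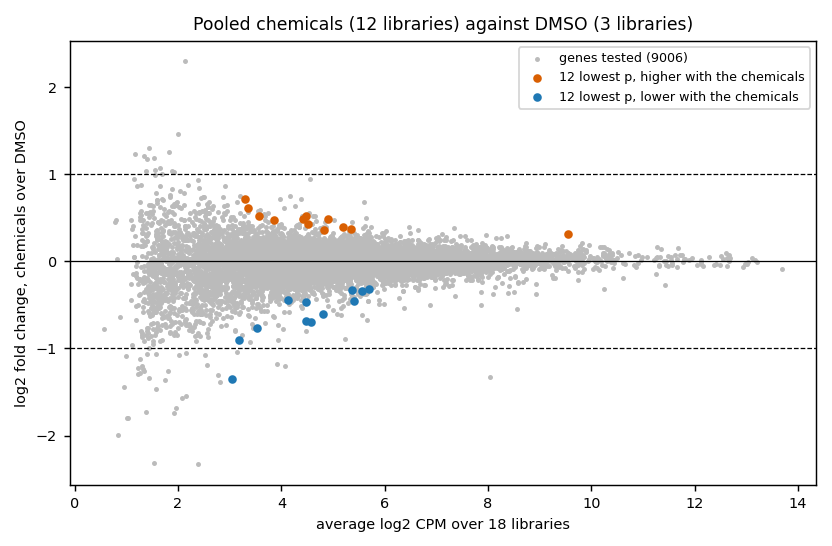
Log2 fold change of the pooled chemicals over DMSO (y axis) against average log2 CPM (x axis) for 9006 genes, 1 point per gene; coloured points are the 12 genes with the lowest p in each direction, and dashed lines mark 2-fold. Most genes lie near 0, the cloud widens at low levels, and the coloured genes lie inside or close to it.

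The size of a shared change that these libraries leave possible can be read from the 95% intervals of the log2 fold changes. For 8022 genes (89.1%) the whole interval lay within 2-fold in either direction, and for 6094 genes (67.7%) it lay within 1.5-fold. Precision followed the level: of 3235 genes with an average log2 CPM of 5 to 7, 99.3% had an interval within 2-fold and 94% within 1.5-fold, with a median SE of 0.13. Of 1420 genes with an average log2 CPM of 1 to 3, only 44.2% had an interval within 2-fold and 1.9% within 1.5-fold, with a median SE of 0.37. A shared change of 2-fold was therefore within the interval of many rarely read genes and of few well-read ones. Leaving out DMSO replicate 2 gave the widest intervals among the 15 fits that left out a library, with 81.3% of genes within 2-fold and 54.3% within 1.5-fold.

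The same shape of comparison, 12 libraries against 3, gave many calls where the time of day differed. Against untreated seedlings at ZT 0 edgeR called 4427 genes for the pooled chemicals (49.2%; Benjamini-Hochberg adjustment, threshold 0.05), of which 2273 were higher (25.2%) and 2154 lower (23.9%). Of all called, 1522 differed at least 2-fold. Time, light, transfer to new medium and the chemicals themselves cannot be told apart there. Without any chemical, DMSO against untreated seedlings, 3 libraries against 3, gave 3204 called genes of 9006 (edgeR).

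Each chemical taken singly was also set apart from the 12 other ZT 2 libraries, as DMSO is in the pooled comparison. No gene was called for DPI, PI, AEG or TYR in this way by edgeR (0% each, with smallest Benjamini-Hochberg adjusted p 0.748, 0.595, 0.67 and 0.413). DESeq2, on the same 9006 genes, called 0 for DPI, 1 for PI (NHO1), 0 for AEG and 5 for TYR. Before adjustment, DPI had 588 genes with p under 0.05 (6.53%), PI had 446 (4.95%), AEG had 340 (3.78%) and TYR had 592 (6.57%), beside 226 for the pooled chemicals against DMSO. These comparisons use the same 15 libraries and are not independent. The DPI mean was the highest or the lowest of the 5 ZT 2 group means for 47% of genes, the PI mean for 43.7%, the AEG mean for 34.4%, the TYR mean for 45.2% and the DMSO mean for 29.6%. DMSO thus lay between the chemicals more often than any chemical lay between the other groups.

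**Figure D2:**
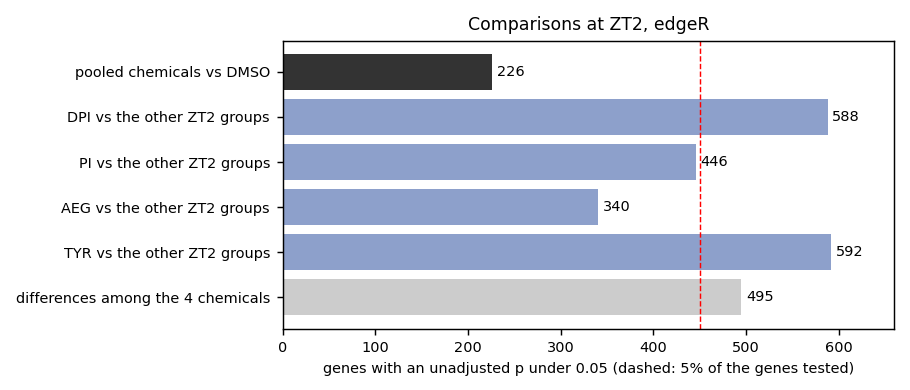
Number of genes with an unadjusted p under 0.05 (x axis, edgeR) for 6 comparisons at ZT 2 (y axis); the dashed line marks 5% of the genes tested. The pooled chemicals against DMSO gave 226 genes, the smallest of the 6 counts, and TYR against the other ZT 2 groups gave 592, the largest.

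Values of all 12 chemical libraries lay on one side of the 3 DMSO libraries for 13 genes (0.144% of those tested), 5 higher (0.0555%) and 8 lower (0.0888%), and none of the 13 passed the test (edgeR, Benjamini-Hochberg adjusted p = 1 for each). There are 455 ways to choose 3 of 15 libraries. Were the libraries exchangeable, a gene would have all 3 DMSO libraries lowest with a probability of 0.0022, and the same for highest. Both shares found were below that. AT1G75980, annotated as a single hybrid motif protein, ranged from 11.4 to 18 CPM with a median of 14.8 CPM in the chemical libraries, against 9.7, 11.2 and 11.1 CPM with DMSO. The lowest chemical library, AEG replicate 3, was just above the highest DMSO library. This is a log2 fold change of 0.48 (SE 0.17; 95% interval 0.12 to 0.85; unadjusted p = 0.0123), and untreated seedlings, at 8.76 to 14.8 CPM, overlapped both sides.

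UBP7, a ubiquitin-specific protease that removes ubiquitin from proteins, ranged from 13.1 to 20.5 CPM with a median of 17.9 CPM in the chemical libraries, against 23.2, 22.3 and 24.7 CPM with DMSO. The pooled log2 fold change of UBP7 was -0.40 (SE 0.14), and the 4 single chemicals lay close together, with DPI at -0.39, PI at -0.35, AEG at -0.40 and TYR at -0.45 against the same DMSO libraries. AT3G55470, a calcium-dependent lipid-binding family protein, ranged from 8.8 to 20.2 CPM with a median of 17 CPM in the chemical libraries, against 22.5, 22.6 and 22.6 CPM with DMSO. The gap to the nearest chemical library was small for both genes, and the DMSO values of AT3G55470 lay close together. AT1G09390, a GDSL-like lipase family protein, ranged from 9.92 to 21.5 CPM with the chemicals, against 26.6, 22.3 and 22.3 CPM with DMSO (log2 fold change -0.53, SE 0.18). AT5G27460, a tetratricopeptide repeat-like protein, averaged 12.9 ± 1.96 CPM with the chemicals and 17.2 ± 1.13 CPM with DMSO (SD, n = 12 and n = 3), with the highest chemical library at 15.5 CPM and the lowest DMSO library at 15.9 CPM (log2 fold change -0.41, SE 0.17).

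The other 8 genes without overlap were AT3G06630, AT3G47830, WNK3 and MAN5 on the higher side and AT3G18350, CNGC1, AT3G06890 and UGT71B6 on the lower side. They fell outside the rule for naming genes and are given because they complete the 13. CNGC1, a cyclic nucleotide gated ion channel of the plasma membrane, had 67.6 to 83.7 CPM with the chemicals against 90.2 to 96.4 CPM with DMSO, and the smallest absolute log2 fold change of the 13, -0.23. AT3G06630, a protein kinase family member, had the largest log2 fold change, 1.46, but at 1.58 to 7.44 CPM with the chemicals against 0.956 to 1.56 CPM with DMSO, where 3 counts were worth 0.889 to 1 CPM.

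The 12 genes with the lowest p on the higher side had log2 fold changes of 0.31 to 0.72 and unadjusted p of 0.00674 to 0.0173 (edgeR, Benjamini-Hochberg adjusted p = 1 for each). PFA-DSP4, an atypical dual-specificity protein phosphatase, had the largest of these changes. It ranged from 6.83 to 17.9 CPM with a median of 10.4 CPM in the chemical libraries, against 5.01, 8.28 and 6.02 CPM with DMSO (log2 fold change 0.72, SE 0.25; 95% interval 0.20 to 1.24). Of the 12 chemical libraries, 10 were above every DMSO library. The pantothenate synthesis enzyme KPHMT1 ranged from 6.24 to 11.1 CPM with the chemicals, against 5.01, 7.01 and 5.11 CPM with DMSO (log2 fold change 0.61), and again 10 of 12 chemical libraries were above every DMSO library.

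EMB2816, a small nuclear ribonucleoprotein family member, had the lowest p on this side, with 29 to 45.3 CPM and a median of 38.3 CPM in the chemical libraries, against 30, 29.6 and 27.1 CPM with DMSO (log2 fold change 0.39, SE 0.13, unadjusted p = 0.00674). All but PI replicate 3 were above the DMSO libraries. ECB2, a pentatricopeptide repeat protein needed for RNA editing in chloroplasts, ranged from 26.1 to 37.6 CPM with a median of 31.8 CPM in the chemical libraries, against 22.9 ± 7.6 CPM with DMSO (SD, n = 3), of which replicate 1 had 31.6 CPM (log2 fold change 0.49). DMSO replicate 1 lay in the middle of the chemical libraries, so the difference rested on the other 2 DMSO libraries. ESM1, a GDSL-like protein that favours isothiocyanates among the products of glucosinolate breakdown, had the smallest SE of the 12, with 648 to 964 CPM and a median of 874 CPM in the chemical libraries, against 701, 784 and 586 CPM with DMSO. The log2 fold change was 0.31 (SE 0.11; 95% interval 0.07 to 0.54), with an interval that ends short of 1.5-fold.

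The remaining 7 were RABA5b (log2 fold change 0.52), a small GTPase of vesicle traffic, the class A heat shock factor AT-HSFA5 (0.49), WDR55 (0.36), a WD-40 repeat protein, AT4G13990 (0.52), AT5G62200 (0.43), AT2G39170 (0.37) and AT1G75980, described above. RABA5b was called against untreated seedlings, with a log2 fold change of -1.02 (edgeR, Benjamini-Hochberg adjusted p = 1.51e-05). RABA5b had 14.6 to 25.8 CPM with the chemicals and 14.4, 10.2 and 15.3 CPM with DMSO, both below the 37.9 to 39.8 CPM of untreated seedlings.

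On the lower side the 12 genes with the lowest p had log2 fold changes of -1.35 to -0.32 and unadjusted p of 0.00104 to 0.00885 (edgeR, Benjamini-Hochberg adjusted p = 1 for each). AT1G02360, a chitinase family gene, had the lowest p of the whole comparison. It ranged from 12.7 to 49 CPM with a median of 20.3 CPM in the chemical libraries, against 26.9, 47.2 and 34 CPM with DMSO, a log2 fold change of -0.70 (SE 0.18; 95% interval -1.07 to -0.32), and -0.46 without DMSO replicate 2. The 3 PI libraries, at 33.5, 49 and 29.3 CPM, overlapped DMSO, while the 9 libraries of DPI, AEG and TYR all lay below it. The log2 fold changes against the shared DMSO libraries put DPI at -1.04, PI at 0.05, AEG at -1.20 and TYR at -0.59.

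AT5G39580, a peroxidase family gene, also had its highest chemical values with PI. It ranged from 1 to 17.5 CPM with a median of 4.59 CPM in the chemical libraries, against 20.7, 3.19 and 14.4 CPM with DMSO (log2 fold change -1.35, SE 0.37; 95% interval -2.12 to -0.57), and -0.82 without DMSO replicate 1. PI had 13.8, 9.18 and 17.5 CPM, and DMSO replicate 2 lay among the libraries of the other 3 chemicals. AT3G07195, a member of the RIN4 family of defence regulators, ranged from 1.92 to 21 CPM with a median of 6.9 CPM in the chemical libraries, against 12.8, 12.4 and 16.5 CPM with DMSO (log2 fold change -0.90, SE 0.30). Here 11 of 12 chemical libraries were below every DMSO library and PI replicate 3 was above them all; on the log2 fold change scale this put DPI at -1.31, PI at 0.08, AEG at -1.17 and TYR at -1.21. In these 3 genes the pooled value was thus carried by 3 of the 4 chemicals.

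PP2-A5, a phloem lectin, lay lower with each chemical, and its order was another one. It ranged from 8.93 to 30.5 CPM with a median of 23.7 CPM in the chemical libraries, against 32.9, 21.3 and 48.7 CPM with DMSO, a pooled log2 fold change of -0.69, and -0.35 without DMSO replicate 3. Against the same DMSO libraries the single chemicals had DPI at -0.51, PI at -0.32, AEG at -0.77 and TYR at -1.16. SD1-29, a receptor kinase that senses bacterial fatty acid metabolites, ranged from 26.9 to 48.5 CPM with the chemicals, against 55.7, 42.1 and 63.5 CPM with DMSO (log2 fold change -0.46). RRS1, an immune receptor of the TIR-NBS-LRR class, ranged from 30.4 to 48.6 CPM with the chemicals, against 46.6, 36.3 and 51.4 CPM with DMSO (log2 fold change -0.33). In all 3 genes DMSO replicate 2 was the lowest DMSO library and overlapped the chemicals.

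The other 6 were AT4G18340 (log2 fold change -0.77), a glycosyl hydrolase, AT5G23510 (-0.60), RPAC43 (-0.44), a subunit of RNA polymerase I, AT1G08900 (-0.47), a transporter of the major facilitator superfamily, AT3G07140 (-0.34) and AT3G47800 (-0.32), a galactose mutarotase-like protein. Part of the AT5G23510 counts were not whole, so its reads may be shared with another locus. AT4G18340 ranged from 3.57 to 13.9 CPM with the chemicals, against 16.6, 15.6 and 12.9 CPM with DMSO, and 11 of 12 chemical libraries were below every DMSO library.

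**Figure D3:**
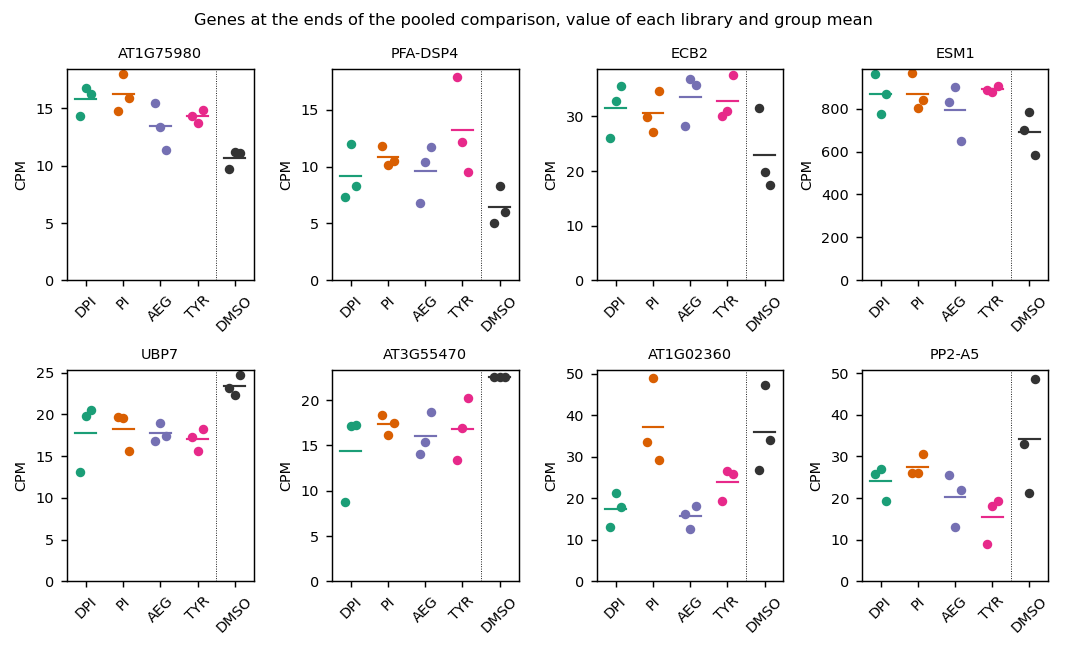
CPM of each library (points) and group mean (bars) for 8 genes with low p or no overlap, by chemical and for DMSO (right of the dotted line). In the upper row the chemicals tend to lie above DMSO and in the lower row below it; for AT1G02360 the PI libraries, at 29.3 to 49 CPM, overlap DMSO.

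Over 11 gene lists, 97 of 197 genes were tested and 0 were called in the pooled comparison (edgeR, Benjamini-Hochberg). At an unadjusted p under 0.05 there were 2 of 97 (2.06%, beside 2.51% of all genes), namely TPS5 and RBOHF. Their log2 fold changes ran from -0.84 to 0.68, and 74 of the 97 had a 95% interval within 2-fold. Against untreated seedlings the same genes gave 58 higher and 20 lower calls, where 25.2% of all genes were called higher and 23.9% lower. The lists were chosen with earlier results of these data known, so calls of their members against untreated seedlings are not independent results.

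Clock genes had a median log2 fold change near 0 between the chemicals and DMSO, and none was called. Of 13 tested, 7 had a positive and 6 a negative log2 fold change, with a median of 0.01 beside -0.0022 over all genes, and 11 of the 13 were called against untreated seedlings, 4 higher and 7 lower, beside 49.2% of all genes called. The median was -0.044 without DMSO replicate 1. LHY, a MYB factor of the morning loop, had 747 to 1240 CPM with a median of 804 CPM in the chemical libraries, against 970, 810 and 925 CPM with DMSO (log2 fold change -0.10; 95% interval -0.34 to 0.14). Untreated seedlings had 2420 to 2610 CPM, and no ZT 2 library came near that range. LNK1, a morning co-activator of clock genes, had 387 to 549 CPM with a median of 471 CPM with the chemicals, against 419, 466 and 435 CPM with DMSO and 5.86 to 15.4 CPM in untreated seedlings (log2 fold change over DMSO 0.09; 95% interval -0.21 to 0.38). BZIP63, a SnRK1 target that links energy status to the clock, had 41.5 to 78.5 CPM with the chemicals, inside the DMSO values of 85.4, 35.7 and 95 CPM. The log2 fold change of BZIP63 was -0.27, and ran from -0.59 to -0.017 with 1 library left out. The 95% intervals of BZIP63 (-0.70 to 0.17), FKF1 (-1.38 to 0.77), JMJD5 (-0.35 to 0.87) and LUX (-0.39 to 0.63) reached past 1.5-fold.

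Sugar-repressed genes lay on the lower side of DMSO in most cases, and none passed the test. Of 11 tested, 9 had a negative log2 fold change, where 50.7% of all genes did, and the median was -0.22 beside -0.0022 over all genes. The 9 include DIN4 and DIN9, each at -0.06, and BZIP2 at -0.12. The lowest unadjusted p of the 11 over DMSO was 0.0568 (edgeR). Against untreated seedlings 6 of the 11 were called lower and 4 higher (BZIP11, BZIP2, DIN9 and KFB50). Of all genes, 23.9% were called lower there and 25.2% higher. The median deviation of the list in a library, on the log2 scale relative to the ZT 2 mean, ran from -0.28 to 0.39 over the chemical libraries, against -0.05, 0.14 and 0.43 in the DMSO libraries, so the sides overlapped. BCAT2, a branched-chain aminotransferase of amino acid breakdown, had 0.595 to 6.91 CPM with a median of 2.7 CPM in the chemical libraries, against 6.26, 3.19 and 5.71 CPM with DMSO (log2 fold change -0.79; 95% interval -1.66 to 0.08). BGAL4, a beta-galactosidase, had 10.4 to 43.1 CPM with a median of 22.1 CPM with the chemicals, against 42.6, 23.3 and 37.9 CPM with DMSO (log2 fold change -0.62; 95% interval -1.26 to 0.02). In both genes the highest chemical library was above every DMSO library and 7 or more of 12 were below all of them. MIOX2, a myo-inositol oxygenase, had 6.85 to 79.2 CPM with the chemicals, against 64.2, 13.7 and 45.1 CPM with DMSO. The log2 fold change of MIOX2 was -0.54 (95% interval -1.45 to 0.37), and ran from -0.95 to -0.064 with 1 library left out. For the list's median that range was -0.33 to -0.16.

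DYL1, a dormancy-associated gene that falls when sugar is supplied, had 3.95 to 20.7 CPM with a median of 10.6 CPM in the chemical libraries, against 15.2 ± 2.92 CPM with DMSO (SD, n = 3) and 149 to 166 CPM in untreated seedlings. The log2 fold change over DMSO was -0.42 (95% interval -1.05 to 0.21), beside -3.80 over untreated seedlings (edgeR, Benjamini-Hochberg adjusted p = 5.86e-11). The 12 libraries thus lay far below the ZT 0 level together with DMSO. TPS9, a trehalose-phosphate synthase-like protein of class II, had 49.1 to 106 CPM with the chemicals, against 100, 76.8 and 109 CPM with DMSO (log2 fold change -0.27). STP1, a hexose transporter of the plasma membrane, had 94.9 to 167 CPM with the chemicals, against 177, 131 and 159 CPM with DMSO (log2 fold change -0.22). The other side was held by KFB50, an F-box protein that targets phenylalanine ammonia-lyase, at 0.27, and by BZIP11, a growth regulator whose translation sucrose represses, at 0.15.

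Of 5 sugar-induced genes tested, 3 had a positive and 2 a negative log2 fold change, with a median of 0.13 beside -0.0022 over all genes. Without DMSO replicate 2 the median was 0.38. TPS5, another class II trehalose-phosphate synthase-like protein, had 58.6 to 91 CPM with a median of 75.3 CPM in the chemical libraries, against 45.4, 82.8 and 46.6 CPM with DMSO (log2 fold change 0.35; 95% interval 0.02 to 0.69). All 12 chemical libraries were above DMSO replicates 1 and 3, and 10 of 12 were below replicate 2. F3H, a hydroxylase of flavonoid synthesis, had 299 to 557 CPM with a median of 393 CPM with the chemicals, against 307, 370 and 312 CPM with DMSO (log2 fold change 0.29; 95% interval -0.0021 to 0.58). The nitrate reductase genes NIA1 and NIA2 were at -0.07 and -0.05.

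Lists for chemical stress gave no called gene. Of 16 detoxification genes tested, 12 had a negative log2 fold change, where 50.7% of all genes did, and the median was -0.19. With 1 DMSO library left out the median was -0.28 (replicate 1), -0.064 (replicate 2) or -0.062 (replicate 3). Against untreated seedlings 12 were called higher and 1 lower, where 25.2% of all genes were called higher and 23.9% lower. CYP81D8, a cytochrome P450 that responds to many xenobiotics, had 14.8 to 112 CPM with a median of 28.5 CPM in the chemical libraries, against 48.8, 32.2 and 70.1 CPM with DMSO (log2 fold change -0.60; 95% interval -1.35 to 0.14), and -0.29 without DMSO replicate 3. The highest value was PI replicate 3, and 8 of 12 chemical libraries were below every DMSO library. GSTU9 and DTX1, a glutathione transferase and a multidrug efflux carrier, had log2 fold changes of -0.84 and -0.73, with 95% intervals of -1.84 to 0.15 and -1.72 to 0.25. Each rested on 1 DMSO library: GSTU9 had 2.5, 9.56 and 3.31 CPM with DMSO and was at -0.045 without replicate 2, and DTX1 had 14.1, 9.88 and 33.1 CPM with DMSO and was at -0.067 without replicate 3.

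The mitochondrial list, 4 genes tested, had a median of 0.09, or -0.053 without DMSO replicate 1. AOX1A, the alternative oxidase that mitochondrial inhibitors raise, had 80.5 to 112 CPM with a median of 92.4 CPM in the chemical libraries, against 64.2, 105 and 88.1 CPM with DMSO. Its log2 fold change was 0.16 with a 95% interval of -0.10 to 0.42, which leaves out a change of 1.5-fold. Of 9 heat shock genes tested, 5 had a positive and 4 a negative log2 fold change, with a median of 0.01, or -0.25 without DMSO replicate 1. HSP90.1, a cytosolic chaperone, had 30.4 to 135 CPM with a median of 101 CPM with the chemicals, against 63.5, 167 and 105 CPM with DMSO (log2 fold change -0.34, and 0.059 without DMSO replicate 2). Its lowest 3 chemical values, 30.4, 54 and 64.6 CPM, were those of TYR. HSFA2, a heat shock factor induced by heat, had 0 counts in every untreated library and 6.64 to 35.1 CPM with the chemicals, against 11, 22.9 and 23.8 CPM with DMSO.

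Of 15 oxidative stress genes on the list 4 were tested, 3 with a positive and 1 with a negative log2 fold change. Their median was 0.25 beside -0.0022 over all genes, with RBOHD at 0.12 and WRKY40 at -0.085. RBOHF, an NADPH oxidase that makes superoxide at the plasma membrane, had 24 to 45.2 CPM with a median of 28.7 CPM in the chemical libraries, against 26.9, 21.3 and 22 CPM with DMSO (log2 fold change 0.39; 95% interval 0.03 to 0.74), and 8 of 12 chemical libraries were above every DMSO library. ELIP2, an early light-induced protein of thylakoids, had 115 to 328 CPM with a median of 189 CPM with the chemicals, against 144, 188 and 127 CPM with DMSO (log2 fold change 0.38; 95% interval -0.14 to 0.89). The 4 touch genes had a median of 0.04, or -0.24 without DMSO replicate 2, and the 5 photosynthesis genes a median of 0.02, or -0.1 without DMSO replicate 3. LHCB2.1, a light-harvesting protein, had 7180 to 11800 CPM with the chemicals, against 10100, 9190 and 7760 CPM with DMSO, a log2 fold change of -0.0068 (95% interval -0.24 to 0.23) whose sign turned with several left-out libraries.

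**Figure D4:**
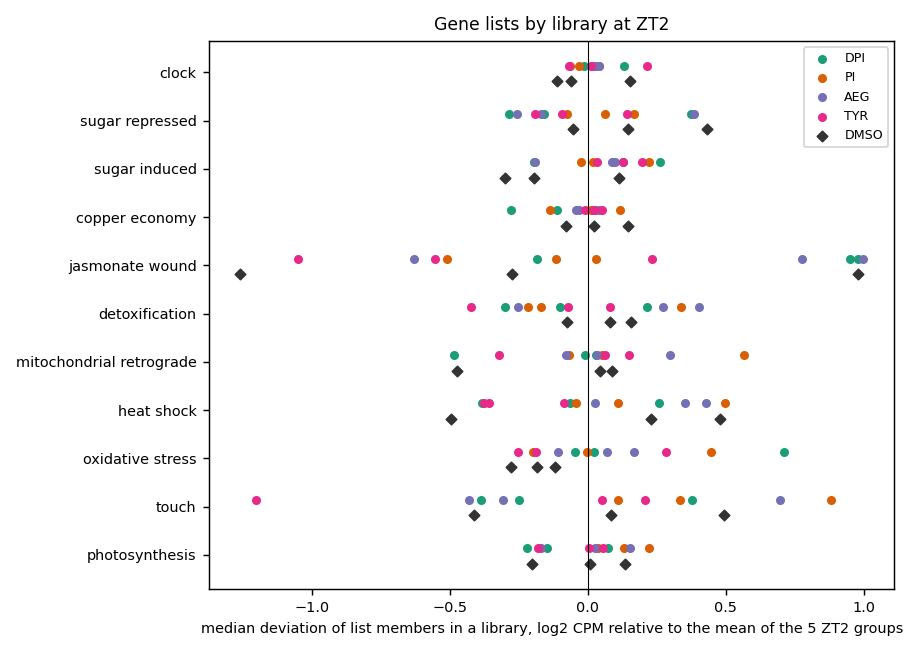
Median deviation of the tested members of each list in a library, in log2 CPM relative to the mean of the 5 ZT 2 groups (x axis), for 11 lists (y axis); circles are the chemical libraries and diamonds, set below them, the DMSO libraries. The DMSO and chemical libraries overlap in each list, and the jasmonate list spreads widest, with chemical libraries from -1.05 to 1 and DMSO libraries from -1.26 to 0.98.

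Genes of jasmonate and wounding varied widely within DMSO and within most of the chemicals. All 14 tested were called higher than in untreated seedlings, as were 25.2% of all genes, with a median log2 fold change of 4.32, while their median over DMSO was 0.06. LOX2, a lipoxygenase that starts jasmonate synthesis, had 1080 to 7990 CPM with a median of 3320 CPM in the chemical libraries, against 1060, 7400 and 2370 CPM with DMSO and 85.2 to 131 CPM in untreated seedlings. The log2 fold change over DMSO was 0.08 with a 95% interval of -0.77 to 0.93, so a shared change of 1.5-fold in either direction was not detectable here. VSP2, a vegetative storage protein induced by jasmonate, had 50.6 to 607 CPM with a median of 165 CPM with the chemicals, against 34.7, 492 and 175 CPM with DMSO. DMSO replicate 2 was the highest and replicate 1 the lowest DMSO library for both genes, and the list's median was 0.93 without replicate 2 and -0.33 without replicate 1.

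Of 12 copper-economy genes tested, 8 had a positive and 4 a negative log2 fold change. Their median was 0.02 beside -0.0022 over all genes, and none was called. Some of them split the libraries on both sides, among them FSD1, CSD2 and YSL2. Others did not, such as PETE1, at 353 to 443 CPM with the chemicals and 399, 369 and 412 CPM with DMSO. COPT1 had 73.4 to 112 CPM with the chemicals and 107, 88.6 and 104 CPM with DMSO. FSD1, the iron superoxide dismutase used when copper is scarce, had 1080, 1670, 1510 and 961 CPM in DPI replicate 1, PI replicate 1, AEG replicate 1 and TYR replicate 3, and 0 to 4.46 CPM in the other 8 chemical libraries. With DMSO it had 1240, 0.956 and 1.2 CPM, and all 3 untreated libraries had 1690 to 1750 CPM. One library of each ZT 2 group was therefore high, and the log2 fold change over DMSO, 0.04, had an SE of 1.87. CSD2, the copper/zinc superoxide dismutase of chloroplasts, had 288, 416, 397 and 727 CPM in those 4 chemical libraries and 387 CPM in DMSO replicate 1. In the other chemical libraries CSD2 ran up to 2130 CPM, and the other 2 DMSO libraries had 1700 and 1810 CPM. YSL2, a metal-nicotianamine transporter, had 160, 125, 151 and 93.8 CPM in the same 4 chemical libraries and 76 CPM in DMSO replicate 1, and 1.91 to 8.28 CPM in the other ZT 2 libraries. With the 5 libraries of high FSD1 left out, a choice made after seeing the data, 0 genes were called and 343 had an unadjusted p under 0.05 (edgeR, smallest Benjamini-Hochberg adjusted p 0.795).

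Over all levels, 50 of 9006 genes had an absolute log2 fold change of 1 or more. Only 5 of them had an average log2 CPM of 3 or more. At that level 2873 genes were tested at 3 to 5, 3235 at 5 to 7 and 1471 at 7 and over. The 5 were all lower with the chemicals and none was called: AT5G39580, AIG1, AT1G55673, AT1G55980 and AT3G19390. All but AT5G39580 were chosen after their values were seen. AT1G55673, whose product RefSeq leaves uncharacterized, stood apart by its level. It had 2.43, 28.8 and 563 CPM with DPI, 5.91, 403 and 463 CPM with PI, 12.7, 49.1 and 116 CPM with AEG, and 2.08, 10.6 and 446 CPM with TYR, against 564, 574 and 1.2 CPM with DMSO. Untreated seedlings had 476, 533 and 484 CPM. High and low libraries thus occurred with DMSO and with the chemicals, and not the same libraries as for FSD1, since TYR replicate 3 and DMSO replicate 1 were high for both while DPI, PI and AEG replicates 1 were low for AT1G55673. The log2 fold change of AT1G55673 was -1.33, with an SE of 1.1. AIG1, a GTP-binding protein induced by avirulent bacteria, rested on DMSO replicate 3 at 32.5 CPM, beside 0.937 to 20 CPM with the chemicals and 5.01 and 8.92 CPM in the other DMSO libraries. The log2 fold change of AIG1 was -1.04, and 0.12 without that library. AT1G55980 had 1.9 to 17.7 CPM with the chemicals, against 17.5, 25.5 and 7.82 CPM with DMSO (log2 fold change -1.18, SE 0.42). AT3G19390 had 4.37 to 38.2 CPM with the chemicals, against 55.1, 22 and 12.6 CPM with DMSO (log2 fold change -1.20, SE 0.43). With 1 library left out, AT1G55980 ran from -1.52 to -0.76 and AT3G19390 from -1.57 to -0.41.

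**Figure D5:**
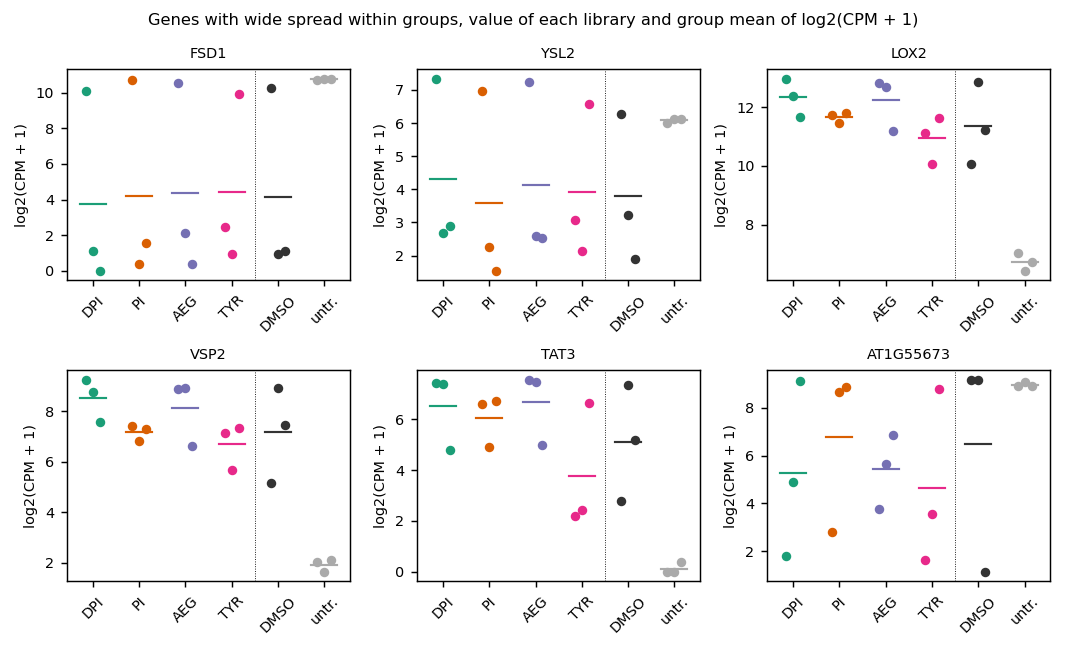
Log2(CPM + 1) of each library (points) and group mean (bars) for 6 genes with wide spread within groups; untr. is the untreated group at ZT 0. FSD1 and YSL2 are high in 1 library of each ZT 2 group, LOX2, VSP2 and TAT3 spread widely within DMSO and within most of the chemicals, less so within PI for LOX2 and VSP2 and little in the untreated group, and AT1G55673 is high in 2 of 3 DMSO libraries and in a part of the chemical libraries.

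Whether the 4 chemicals can be read as one side was asked by testing for differences among them. In edgeR no gene was called (0%), the smallest Benjamini-Hochberg adjusted p was 0.642, and 495 genes (5.5%) had an unadjusted p under 0.05. DESeq2, run as an alternative on the same 9006 genes, called 11 of them. The lowest p in both was that of NHO1, a glycerol kinase needed for resistance to non-host bacteria. It had 136, 132 and 131 CPM with PI and 75.9 to 118 CPM in the other 9 chemical libraries, with DMSO at 112, 122 and 99.6 CPM (adjusted p 0.642 by edgeR and 0.00351 by DESeq2, Benjamini-Hochberg). The PI libraries were above every other chemical library and every DMSO library, and 7 of the other 9 chemical libraries were below every DMSO library. DUR3, a urea and proton symporter, had 14.9 to 19.9 CPM with DPI and 32.5, 38 and 37.2 CPM with PI, with DMSO at 27.2, 24.5 and 24.1 CPM (adjusted p 0.746 by edgeR and 0.0398 by DESeq2).

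AT1G02360 and AT5G64100, a second peroxidase family gene, were the other 2 with the lowest p among the chemicals (adjusted p 0.746 each by edgeR, 0.0231 and 0.0262 by DESeq2, Benjamini-Hochberg). AT5G64100 had 100, 95.6 and 83.7 CPM with PI and 16.7 to 69.4 CPM with the other chemicals, against 81.1, 87.3 and 54.4 CPM with DMSO. In both genes PI lay near DMSO and the other chemicals mostly below it. DESeq2 also called 5 of 9006 genes for TYR against the other ZT 2 groups, each lower with TYR. They were HSP17.8, HSP90.1, ASP3, CAD5 and AT5G55180, all with an adjusted p of 0.413 by edgeR. HSP17.8, a small heat shock protein, had 4.46, 2.19 and 3.48 CPM with TYR and 7.28 to 30.2 CPM in the other 9 chemical libraries, against 9.39, 14 and 22 CPM with DMSO. ASP3, an aspartate aminotransferase, had 99.4, 109 and 129 CPM with TYR and 146 to 162 CPM in the other 9 chemical libraries, against 146, 158 and 146 CPM with DMSO. For HSP17.8 and ASP3 every TYR library was below every other chemical library and every DMSO library, and DMSO lay within or next to the range of the other chemicals. The genes named for these tests were picked by p in the same libraries, so their separation is no further evidence.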

How the data were processed

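RNA-seq libraries were made from poly(A) RNA of whole seedlings, and paired-end reads came from an Illumina HiSeq instrument, per the labels' protocols. The submitters' processing notes name HISAT2 2.2.1, RSEM 1.2.22 and the build TAIR10. The authors deposited expected counts, that is, an estimated count per gene and library, per the file headers. Of these 3.59% were not whole, so counts were rounded. Deposited FPKM and TPM values were not used. Lines without a gene were left out, and names came from RefSeq TAIR10.1, in which all 11437 genes matched.

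Counts were tested with edgeR 4.0.16 in R 4.3.3 (TMM, filterByExpr, quasi-likelihood) in 1 fit over 18 libraries with 1 coefficient per group and 12 residual degrees of freedom. The pooled effect was the mean of the 4 chemical coefficients minus DMSO, so each chemical weighed the same. P-values were adjusted by Benjamini-Hochberg over 9006 genes, with calls at an adjusted p under 0.05. CPM values used TMM factors of 0.942 to 1.07. Standard errors were derived from the fold change and F statistic. Alternatives were DESeq2 1.42.0, other filters and scalings, a replicate block, and leaving out libraries or chemicals. The fits were tested on simulated data. With 200 genes changed 2-fold in every chemical group, edgeR called 78.5% of them. Of the other genes 5.1% had an unadjusted p under 0.05, beside 2.51% of all genes in the real libraries. Counts were drawn independently for each gene and library, so library states such as those of FSD1 were absent there. Library measures were compared by exact permutation over all choices of 3 of 15 libraries, where the smallest possible p is 0.0022. Replicates differed beyond sampling noise, with squared differences at least 3.09 times those of Poisson counts, so each library was counted once. Floors and counting errors take reads as independent molecules, which PCR copies are not.

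Named genes had an average log2 CPM of at least 3: the 12 lowest p in each direction, up to 4 in each direction without overlap, and the 4 lowest p among chemicals, plus list members. Members, lists and rules were chosen with earlier results of these data known, and the lists came from general knowledge. Guard cell markers were KAT1 only, at 54.1 to 138 CPM with the chemicals, 62.6 to 91.1 CPM with DMSO and 27.2 to 40.3 CPM untreated.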

Additional observations from a re-analysis of the deposited data

How the results depend on the processing

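The pooled comparison with DMSO called 0 genes under every alternative tried, with the smallest Benjamini-Hochberg adjusted p between 0.0702 and 1 and 158 to 592 genes at an unadjusted p under 0.05. The count of 592 and the adjusted p of 0.0702 came without DMSO replicate 2. A replicate block in the fit gave 0 calls and 215 genes with p under 0.05. Over all genes tested, the numbers did not pair the libraries. Of 12 chemical and DMSO pairs of the same number, 2 had deviations correlated over 0.1. The TYR pairs were the lowest, at -0.156, -0.22 and -0.311 for replicates 1, 2 and 3. DPI replicate 3 was at -0.132 and PI replicate 2 at -0.126. The mean correlation was 0.0125 for the same number and -0.00631 for other numbers. Single genes could still follow the number: FSD1 was high in replicate 1 of DMSO, DPI, PI and AEG, and in replicate 3 of TYR. Of 9006 genes, DESeq2 called 11 among the chemicals, 1 for PI and 5 for TYR against the other ZT 2 groups, each 0 by edgeR. The comparison with untreated seedlings had 1522 calls with a 2-fold minimum, and 3564 to 4523 with 1 library left out. Leaving out 1 library moved the list median to 0.033 to 0.38 for sugar-induced genes and to -0.33 to 0.93 for jasmonate genes, the difference in total count to between -29500 and 11500, and that in the share of the 10 most abundant genes to between -0.285 and 0.0577 percentage points. There were 33 alternatives in all, with 22 to 27 for each value of a single gene. These values were log2 fold changes over DMSO and adjusted p among the chemicals, which have no sign. Of them, 1803 stayed uncalled and kept any sign, 49 turned sign and 4 adjusted p passed with DESeq2. List medians moved by less than the spread between libraries of a group in 348 cases, but several that lay near 0 turned sign with 1 library left out, down to -0.25 for heat shock, -0.24 for touch, -0.1 for photosynthesis, -0.053 for mitochondrial and -0.044 for clock genes. Of the named genes that kept their sign, 1 left-out DMSO library also moved ESM1 to 0.2, AT4G13990 to 0.31, TPS5 to 0.2 or 0.69, KFB50 to 0.085, TPS9 to -0.16, RPAC43 to -0.28, AT5G23510 to -0.35, AT3G07140 to -0.2 and AT3G47800 to -0.17. With 1 library left out, log2 fold changes over DMSO that turned sign ran from -0.36 to 1.15 for LOX2, -0.54 to 1.95 for TAT3, -0.58 to 1.08 for VSP2, -2.24 to 8.56 for FSD1, -0.29 to 3.09 for YSL2, -0.012 to 0.33 for AOX1A, -0.10 to 0.081 for LHCB2.1, -0.40 to 0.06 for HSFA2, -0.63 to 0.059 for HSP90.1, -0.092 to 0.40 for CHS, -0.19 to 0.033 for NIA1 and -1.46 to 0.12 for AIG1. Pools of 3 chemicals turned LOX2 to -0.11 without DPI and -0.092 without AEG, LHCB2.1 to 0.04 without DPI and 0.025 without TYR, FSD1 to -0.098 without PI and -0.048 without AEG, VSP2 to 0.13 without PI and 0.24 without TYR, and HSP17.8 to 0.031 without TYR. VSP2 was also at 0.13 with the 12 libraries as 1 group. Without the 5 libraries of high FSD1, YSL2 was at -0.24, LOX2 at -0.62, TAT3 at -1.3, AOX1A at -0.044 and LHCB2.1 at 0.077. The causes were not tested. Depth limited genes with an average log2 CPM under 3 most, and intervals were wider with any of the 3 DMSO libraries left out.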
